A study of Mus musculus with 2 samples.

Results

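S phase is the part of the cell cycle in which chromosomes are copied, and the leukemia cells described here were given its name by a rule on transcripts. DNA content was not measured, and histone transcripts, described below, were not highest in this class. UMIs number the distinct transcripts captured from a cell. Barcodes were kept when they had 500 or more detected genes and no more than 10% mitochondrial UMIs. In each kept cell the UMIs of 8 S phase genes (Ung, Hells, Cdc6, Mcm5, Mcm6, Gins2, Uhrf1 and Dtl) were divided by all UMIs of the cell to give the S share, and those of 8 genes of G2 and mitosis (Top2a, Mki67, Cenpf, Ube2c, Cdk1, Nusap1, Tpx2 and Cenpe) to give the M share. S phase cells were in the top 20% by S share and outside the top 20% by M share, over both libraries together, which gave 2010 of 13310 kept cells. The other kept cells were 652 cells in both top 20% sets (S and G2M cells), 2010 cells in the top 20% by M share alone (G2M cells) and 8638 cells in neither.

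The cells came from a mouse model of acute myeloid leukemia driven by AML1-ETO9a (AE9a), a shortened fusion of AML1 and ETO that was introduced into fetal liver cells with a retrovirus that also carries GFP. The leukemia cells of both groups also carried floxed Usp18 and UBCER-Cre, a tamoxifen-activated recombinase under the ubiquitin C promoter, which is active in most cell types. Sick recipient mice received oil in one group and tamoxifen in the other, and GFP+ Lin- c-Kit+ splenocytes were sorted 3 days after the first injection, pooled from 3 mice per group, with 8000 cells targeted per library. Recipients were irradiated mice that retain host cells, and the GFP gate selects the transplanted cells. The labels disagree on the genotype: title, genotype and treatment give Usp18 f/f and its homozygous deletion, while the treatment protocol gives Usp18+/f and a heterozygous deletion, so groups are named by injection. Each group has 1 library, so the spread between animals is unknown and no test was run.

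The oil-labelled library held 6838 kept cells with 66045700 UMIs and the tamoxifen-labelled library 6472 kept cells with 60661486 UMIs, at medians of 8622.5 and 8209.5 UMIs per cell. The libraries shared 14 barcodes, 12 of them among kept cells. Of the S phase cells, 2 had such a barcode, and no barcode was an S phase cell in both libraries. Usp18 (ENSMUSG00000030107, chromosome 6, 121245906 to 121270917, plus strand, GRCm38), the deubiquitinase-like enzyme that removes ISG15 from proteins and the gene targeted here, had 63 UMIs in S phase cells of the oil-labelled library and 120 in those of the tamoxifen-labelled library. This goes against the label, in which tamoxifen deletes Usp18. Reads at the 3′ end do not show whether an upstream part was deleted, so the transcript count checks nothing about the deletion, and the groups below are the libraries as labelled.

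Before S phase, origins of replication are licensed when ORC, CDC6 and CDT1 load the MCM2-7 helicase onto DNA. At the G1/S border, cyclin E with CDK2 helps to release E2F factors from RB family proteins, and E2F then drives genes for licensing, DNA polymerases and nucleotide synthesis. The genes of G2 and mitosis follow later, many of them through the CHR element, which MuvB complexes bind. Replication-dependent histone transcripts, which lack a poly(A) tail in their usual form, accumulate during DNA synthesis and are degraded when it ends. The AE9a leukemia cells described here were sorted from the spleen as c-Kit+ cells, and only a part of them had a high S share or M share.

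Promoters of the rule genes were examined for these motifs because they are the sequences that E2F and MuvB complexes are known for. Windows of 300 bases, from 250 before to 50 after the transcript start, came from RefSeq (GRCm38.p6), with 32851 windows of 27025 genes. The E2F motif was taken as TTTGGCGC, TTTCGCGC, TTTCCCGC or TTTGGCGG and the CHR as TTTGAA, each on either strand. The windows below show Mcm6 and Hells, which are S rule genes, Mcm3, a helicase subunit that the rule did not use, and Top2a of the M rule for contrast. All are written 5′ to 3′ on the strand of the gene, and capitals mark the motif matches. They lie at chr1:128359656-128359955 (minus strand, Mcm6), chr19:38930740-38931039 (plus strand, Hells), chr1:20820263-20820562 (minus strand, Mcm3) and chr11:99024140-99024439 (minus strand, Top2a).
Mcm6: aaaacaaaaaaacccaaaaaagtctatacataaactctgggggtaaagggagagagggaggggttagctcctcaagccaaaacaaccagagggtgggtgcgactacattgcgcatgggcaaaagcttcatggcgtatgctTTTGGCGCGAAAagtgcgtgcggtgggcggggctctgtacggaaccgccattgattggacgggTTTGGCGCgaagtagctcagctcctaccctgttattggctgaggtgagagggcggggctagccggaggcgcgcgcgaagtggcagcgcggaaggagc
Hells: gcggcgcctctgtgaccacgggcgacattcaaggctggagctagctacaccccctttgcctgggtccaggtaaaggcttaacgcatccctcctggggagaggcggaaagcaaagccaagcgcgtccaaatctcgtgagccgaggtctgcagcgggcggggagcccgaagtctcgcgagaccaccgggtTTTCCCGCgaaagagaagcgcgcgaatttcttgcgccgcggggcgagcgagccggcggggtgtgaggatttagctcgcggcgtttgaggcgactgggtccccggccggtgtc
Mcm3: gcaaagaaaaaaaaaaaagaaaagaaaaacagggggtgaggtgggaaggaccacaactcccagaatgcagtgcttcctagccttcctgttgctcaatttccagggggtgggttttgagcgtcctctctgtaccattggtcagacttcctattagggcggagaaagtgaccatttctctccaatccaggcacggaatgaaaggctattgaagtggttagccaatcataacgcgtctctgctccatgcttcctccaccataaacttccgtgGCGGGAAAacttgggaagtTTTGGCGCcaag
Top2a: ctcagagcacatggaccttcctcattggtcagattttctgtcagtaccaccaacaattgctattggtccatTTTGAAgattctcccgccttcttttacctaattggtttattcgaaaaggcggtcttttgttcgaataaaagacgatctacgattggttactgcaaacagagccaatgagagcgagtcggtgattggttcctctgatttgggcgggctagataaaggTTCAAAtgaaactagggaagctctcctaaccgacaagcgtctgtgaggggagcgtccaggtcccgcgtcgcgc

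The Mcm6 window held 3 E2F matches, which began 110, 106 and 47 bases before the start, and the first pair overlapped. The Hells window held 1, which began 62 bases before the start. In the Mcm3 window both matches lay downstream of the start, at window bases 270 and 289. The Top2a window held no E2F match and 2 CHR matches, which began 179 and 23 bases before the start. An E2F match was found in 6 of 7 S rule genes that had a window (none was matched for Gins2) and in 1 of 7 M rule genes with a window, against 2.37% of all windows. Of 117 listed genes of DNA replication that the rule did not use, 98 had a window, and 24.6% of their 118 windows held a match. CHR matches showed the opposite division, with none in the S rule genes and 5 of 7 M rule genes, against 17.9% of all windows. Among further genes of G2 and mitosis, 17 of 21 windows held a CHR match and 0 an E2F match. No E2F match overlapped a CHR match. The windows of Pcna, Rrm2, Ccne1, Mybl2, Slbp and Ung held no match to these letters.

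S phase cells made up 18.6% (17.7 to 19.5) of kept cells in the oil-labelled library and 11.4% (10.6 to 12.2) in the tamoxifen-labelled library, as 1272 and 738 cells. Values in brackets are exact 95% intervals, which cover counting error only. The cells in neither set made up 58.0% and 72.2%. Because the rule takes a fixed share of the pooled cells, these percentages describe how the libraries divide them. S and G2M cells had a smaller part in both libraries, at 6.05% and 3.68%, and G2M cells made up 17.4% and 12.7%, so each of the 3 classes with a high share was a larger part of the oil-labelled library.

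**Figure D1:**
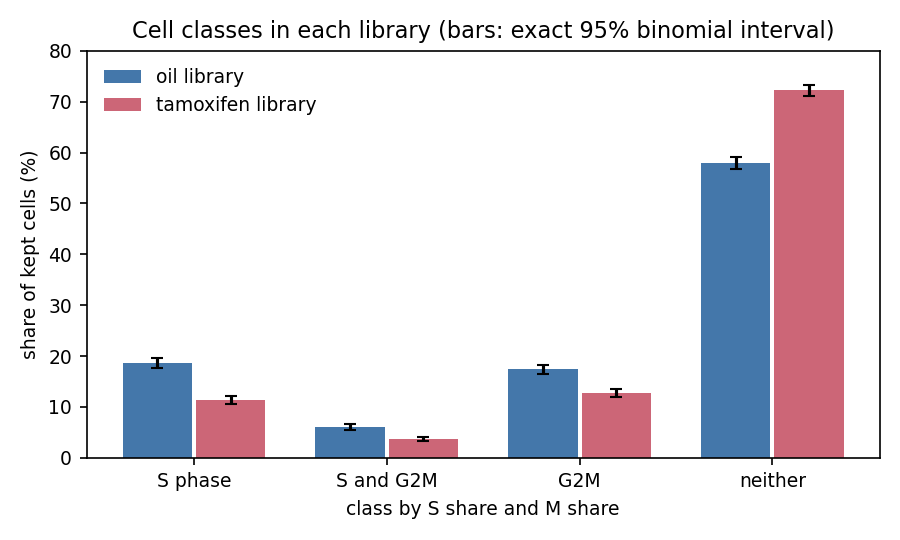
Percent of kept cells (y axis) in each cell cycle class (x axis) for the oil-labelled library and the tamoxifen-labelled library, with bars from 0 and exact 95% intervals that cover counting error only. S phase cells stand at 18.6% and 11.4%, and cells in neither set at 58.0% and 72.2%.

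S phase cells were deep cells, with a median of 12622 UMIs in the oil-labelled library and 13572.5 in the tamoxifen-labelled library. Cells in neither set had medians of 6333 and 6720 UMIs, and G2M cells 15057 and 15019. S phase cells thus lay between these classes in depth in both libraries. The median number of detected genes was 3449.5 and 3491.5 in S phase cells. The 8 S rule genes together gave a median of 14 UMIs per S phase cell in both libraries, against 1 in cells in neither set, and the median S phase cell had a UMI of 6 of the 8 genes. At least 4 of the 8 genes were detected in 91.0% and 90.9% of S phase cells. At full depth the class thus seldom rested on 1 or 2 transcripts of a single gene. These genes chose the cells, and S phase cells were deeper than cells in neither set. After each cell was thinned to 3000 UMIs, the median S phase cell had 3 UMIs of these genes in both libraries. It had a UMI of 3 and 2 of the genes, and 3.16% and 3.29% of S phase cells had none. Cells in neither set then had a median of 0 UMIs of these genes.

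The values that chose the cells are a description and support nothing. The median S share of S phase cells was 11.0 per 10000 UMIs in the oil-labelled library and 10.3 in the tamoxifen-labelled library, against 2.25 over all kept cells. The lowest S share inside the limit was 7.15372 per 10000 UMIs (8 of 11183 UMIs) and the highest outside it was 7.15256 (10 of 13981 UMIs). The limit thus cut a continuous range. Within 10% of it, 329 cells lay above and 287 below, and genes the rule did not use had no common direction across it. Pcna stood at 124 CPM above and 141 below, Rrm2 at 115 and 108, and Mcm3 at 182 and 178. CPM are the UMIs of a gene per 1000000 UMIs over all cells of a class.

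Ung, which removes uracil from DNA, stood at 87.5 and 81.4 CPM in S phase cells of the oil- and tamoxifen-labelled libraries, against 8.07 and 6.19 in cells in neither set and 3.77 and 2.55 in G2M cells. Mcm6, a subunit of the replicative helicase, stood at 322 and 306 against 92.6 and 81.7 in cells in neither set, and Uhrf1, which helps to maintain DNA methylation behind the fork, at 171 and 145 against 20.2 and 14.6. When each rule gene was left out and the cells chosen again by the other 7, 88.8% to 96.9% of S phase cells stayed in the class. The left-out gene was then still higher in the class than in cells in neither set, by a log2 ratio between 1.36 (Mcm6) and 2.84 (Ung) in the oil-labelled library and between 1.58 and 3.27 in the tamoxifen-labelled library. Each of the 8 genes was therefore high in cells picked without it.

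Genes that the rule did not use were compared between S phase cells and cells in neither set, within each library. Over 10240 genes with at least 100 UMIs, 1044 (10.2%) were at least 1.5-fold higher in S phase cells of both libraries and 1861 (18.2%) at least 1.5-fold lower. The minimum counts UMIs of both classes, so genes high in cells in neither set could pass it through those cells alone. The count of lower genes depends in part on this filter. Over S phase cells alone, 8851 genes, rule genes included, reached 100 UMIs. The fold is a rule of size and not a test. The median gene stood at -0.13 and -0.12 on the log2 scale, and with TMM scaling the counts were 1484 and 1354, with median-ratio scaling 1495 and 1332. Of the 117 listed genes of DNA replication, 102 were at least 1.5-fold higher in both libraries and 1, Pold4, was lower. Their median log2 ratio was 1.43 in the oil-labelled library and 1.55 in the tamoxifen-labelled library.

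Among the origin licensing and helicase genes, 20 of 24 measured were at least 1.5-fold higher in both libraries and none lower, with median log2 ratios of 1.73 and 1.85. Mcm3, another helicase subunit, stood at 269 CPM (261 to 277) in S phase cells of the oil-labelled library and 250 (240 to 260) in those of the tamoxifen-labelled library, against 75.9 and 55.6 in cells in neither set, for log2 ratios of 1.83 and 2.17. Mcm4 stood at 125 and 119 CPM against 34.6 and 28.8. Orc1, the largest subunit of the origin recognition complex, stood at 14.7 and 12.9 CPM in S phase cells, with log2 ratios of 2.01 and 3.10. Gmnn, geminin, the inhibitor of CDT1 that stops origins from being licensed again, stood at 239 and 200 CPM against 76.3 and 63.1.

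The polymerase and fork list held 31 measured genes, of which 28 were at least 1.5-fold higher in both libraries, with median log2 ratios of 1.45 and 1.60. Pcna, the sliding clamp that holds DNA polymerases on their template, stood at 153 CPM (147 to 159) and 140 (133 to 147) in S phase cells and at 55.8 and 47.7 in cells in neither set, for log2 ratios of 1.45 (1.36 to 1.55) and 1.55 (1.45 to 1.65). Pold4, the small accessory subunit of polymerase delta, went the other way at 37.3 and 37.9 CPM against 72.6 and 70.1. All 23 nucleotide synthesis genes measured were at least 1.5-fold higher in both libraries. Rrm2, the regulated subunit of ribonucleotide reductase, stood at 142 and 125 CPM against 20.5 and 17.7, for log2 ratios of 2.79 and 2.82. Tyms, thymidylate synthase, stood at 195 and 169 CPM against 54.9 and 44.3, and Tk1, thymidine kinase, at 80.2 and 76.3 against 13.1 and 10.9.

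**Figure D2:**
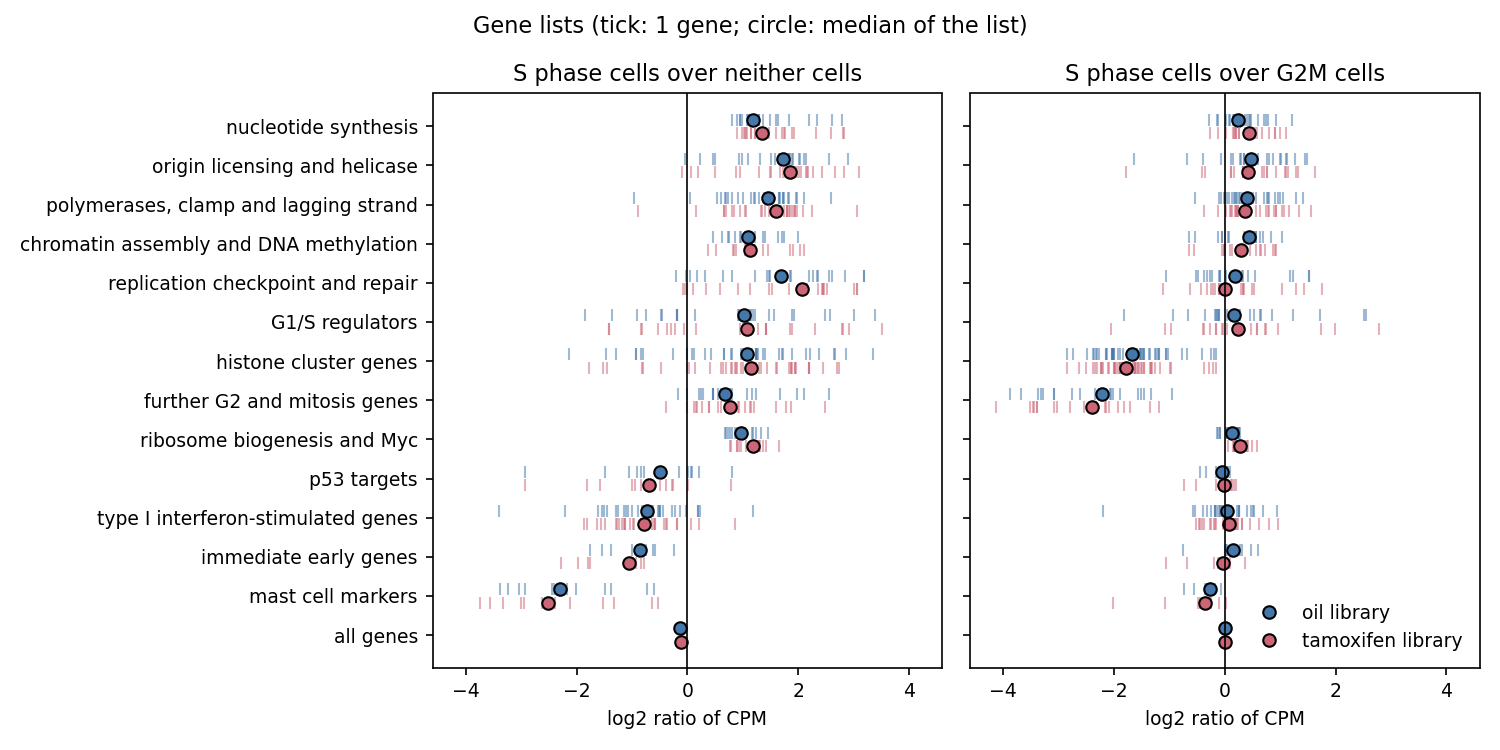
Log2 ratio of CPM (x axis) of S phase cells over cells in neither set (left) and over G2M cells (right) for the measured genes (ticks) of each gene list, with the list median (circles), in both libraries and without the 16 rule genes. On the left the replication lists have medians from 1.09 to 2.06, and of the lists drawn mast cell genes lie lowest with medians of -2.30 and -2.51. The histone list on the right includes 10 genes that reach the minimum only through the G2M cells.

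Of 24 G1/S regulators measured, 14 were at least 1.5-fold higher in both libraries, 4 lower and 6 neither. Ccne1, cyclin E1, stood at 23.4 CPM (21.1 to 25.9) and 21.2 (18.4 to 24.2) in S phase cells against 2.23 and 1.85 in cells in neither set, for log2 ratios of 3.39 (3.00 to 3.81) and 3.52 (3.11 to 3.94). Ccne2, cyclin E2, stood at 28.0 and 26.0 CPM against 4.71 and 3.78. E2f1, an activating E2F factor, stood at 48.8 and 51.0 CPM against 13.2 and 10.4, and Mybl2, the B-MYB factor that joins MuvB, at 52.2 and 48.5 against 6.54 and 6.45. The 4 lower genes were Ccnd1 (cyclin D1), Rbl2 (the RB relative p130) and the CDK inhibitors Cdkn1a and Cdkn1b. Cdkn1b stood at 41.8 and 40.6 CPM against 107 and 108, and Cdkn1a at 58.6 and 81.9 against 110 and 146.

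In the checkpoint and repair list, 17 of 23 measured genes were at least 1.5-fold higher in both libraries and none lower. Exo1, a nuclease of mismatch repair and end resection, stood at 33.1 and 27.6 CPM against 3.65 and 3.29, and Brca1, which acts in homologous recombination, at 37.4 and 40.6 against 4.13 and 4.88. Chek1, the checkpoint kinase of stalled forks, had log2 ratios of 2.61 and 2.51. Chromatin assembly genes were at least 1.5-fold higher in 14 of 16, with median log2 ratios of 1.09 and 1.13. By the smaller of its ratios in both libraries, Aunip, a partner of Aurora A and of DNA repair, was the highest of all genes that reached 20 CPM, at 28.1 and 24.5 CPM against 2.59 and 1.70. The next were Ccne1, Exo1, Brca1, Mybl2, Lrr1, Rad51ap1, Fbxo5, Rrm2 and Hist1h1b.

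All 18 measured genes of the ribosome biogenesis list, which includes Myc, were also at least 1.5-fold higher in both libraries, with median log2 ratios of 0.97 and 1.17. Against G2M cells none of the 18 was higher by that fold in both libraries, with medians of 0.14 and 0.28. Myc, which drives ribosome biogenesis among other growth genes, stood at 65.8 and 80.2 CPM in S phase cells. In cells in neither set it stood at 37.9 and 35.0. Further genes of G2 and mitosis were at least 1.5-fold higher in 13 of 22, with median log2 ratios of 0.68 and 0.78, although the rule left out the cells with the highest M share. Of the 14 erythroid markers, 3 were higher than in cells in neither set (Tfrc, the transferrin receptor, and the carbonic anhydrases Car1 and Car2). The 7 lower ones were the globin genes Hba-a1, Hba-a2, Hbb-bs and Hbb-bt, with Alas2, Slc4a1 and Rhag. Against G2M cells none of the 14 was at least 1.5-fold higher in both libraries and 1 was lower.

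Among the lists with more than 1 measured gene, mast cell genes had the lowest median, with 11 of 12 measured at least 1.5-fold lower in both libraries and log2 medians of -2.30 and -2.51. Cpa3, the mast cell carboxypeptidase, stood at 87.2 and 62.9 CPM in S phase cells against 719 and 504 in cells in neither set, and Cma1, a chymase, at 112 and 85.2 against 1056 and 659. Kit, the receptor by which the cells were sorted, stood at 95.7 and 112 CPM against 269 and 321. Of 32 interferon-stimulated genes measured, 19 were at least 1.5-fold lower in S phase cells of both libraries and 1, Ifit2, was higher. Of 10 immediate early genes, 8 were lower and none higher, and of 13 p53 target genes 6 were lower and 1, Aen, was higher. Against G2M cells the medians of these lists were nearer to 0, with log2 ratios of S phase over G2M cells of 0.05 and 0.07 (interferon-stimulated), 0.15 and -0.04 (immediate early), -0.04 and -0.02 (p53 targets) and -0.26 and -0.36 (mast cell). The lowest genes by the rule of naming also held S100a6, a calcium-binding protein, at 17.9 and 15.4 CPM against 225 and 120, Klf2, a transcription factor of quiescent cells, at 13.9 and 9.94 against 156 and 90.4, and Sgk1, a serum- and glucocorticoid-regulated kinase, at 16.8 and 21.9 against 185 and 212. CPM is a share of the class total, so a lower CPM can go with fewer transcripts of the gene or with more RNA of other genes in the cell. Counted per cell, the summed mast cell list was still lower in S phase cells, at 21.9 and 21.3 UMIs against 39.0 and 33.0. The summed interferon-stimulated genes were not, at 7.90 and 10.7 UMIs per S phase cell against 6.02 and 9.34, and the immediate early genes stood at 13.3 and 7.22 against 13.5 and 8.58.

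**Figure D3:**
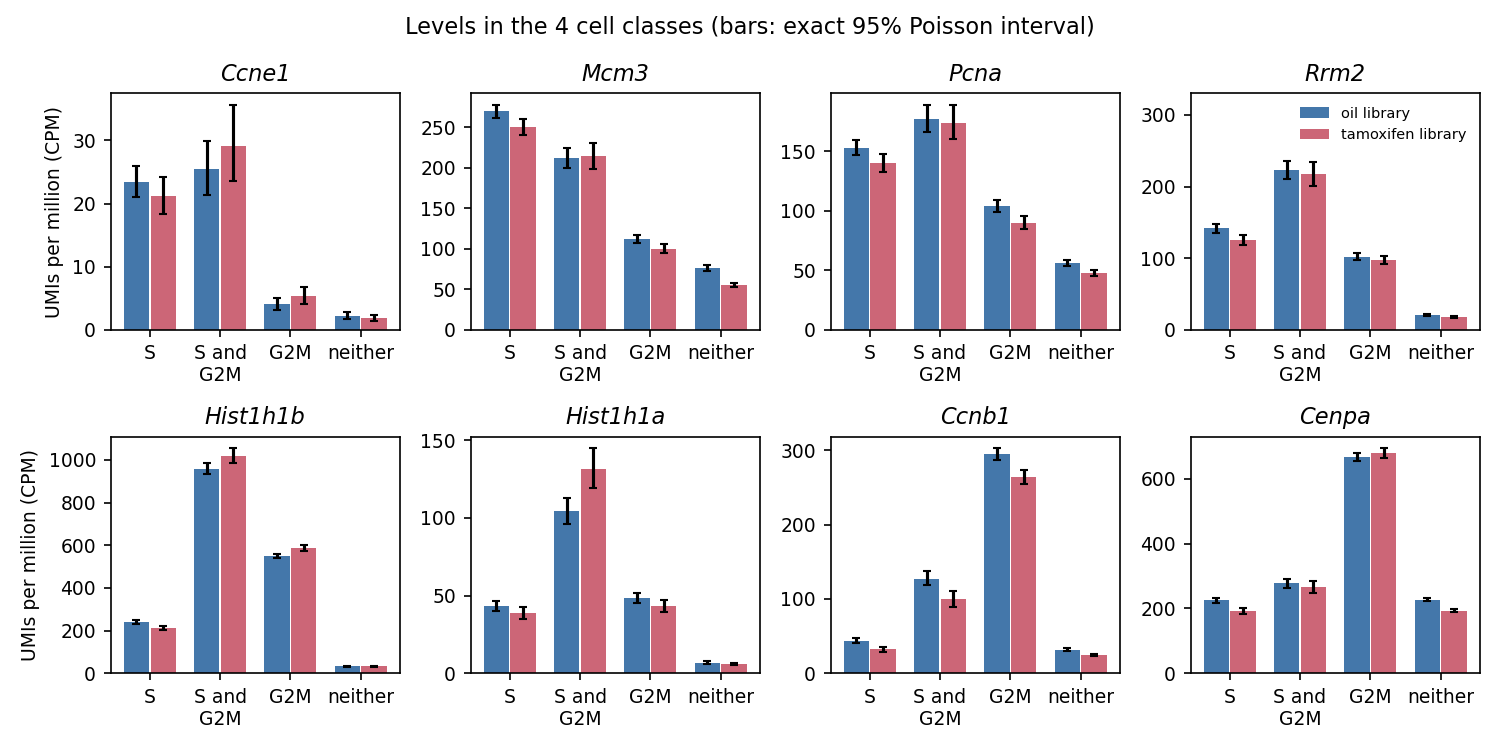
Level in CPM (y axis, bars from 0, a scale of its own for each gene) of 8 genes in the 4 cell cycle classes (x axis), for both libraries, with exact 95% intervals that cover counting error only. Cenpa, the centromere histone, stands with Ccnb1 for genes of G2 and mitosis. Mcm3 and Ccne1 are highest in the classes with a high S share, whereas Hist1h1b is lower in S phase cells (239 and 212 CPM) than in G2M cells (549 and 586 CPM).

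To see which genes set S phase cells apart from the other cycling cells, they were compared with G2M cells over 9571 genes. At least 1.5-fold higher in S phase cells of both libraries were 314 genes (3.28%), and 363 (3.79%) were lower. Of the 117 replication genes, 32 were higher than in G2M cells and the median log2 ratio was 0.34 in the oil-labelled library and 0.35 in the tamoxifen-labelled library, so most replication genes were high in both classes. Ccne2 stood at 4.94 and 3.78 CPM in G2M cells, near its level in cells in neither set, and its log2 ratio of S phase over G2M cells was 2.50 and 2.78. Ccne1 stood at 4.01 and 5.35 CPM in G2M cells, Mcm4 at 44.8 and 38.3 and Msh6, a subunit of the mismatch sensor, at 16.6 and 16.4 against 47.8 and 44.0 in S phase cells. Dbf4, the activator of the CDC7 kinase that fires origins, was lower in S phase cells, at 31.9 and 28.2 CPM against 99.1 and 97.0 in G2M cells. All 22 further genes of G2 and mitosis were lower. Ccnb1, cyclin B1, stood at 43.7 and 32.2 CPM in S phase cells against 295 and 264 in G2M cells, and Ccna2, cyclin A2, which is needed from S phase on, at 70.1 and 57.1 against 248 and 237.

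Replication-dependent histone genes, which mark ongoing DNA synthesis, went against the name of the class. Against cells in neither set, 27 of 41 measured histone genes were at least 1.5-fold higher in both libraries and 5 lower, with median log2 ratios of 1.08 and 1.15. The 5 lower genes, which the sums below include, were Hist1h1c, Hist1h2ac, Hist1h2bc, Hist3h2a and Hist3h2ba. Of the 67 listed, 26 had too few UMIs for this comparison. Summed over all 67, histone genes stood at 1081 and 958 CPM in S phase cells, 3579 and 3963 in S and G2M cells, 2954 and 2972 in G2M cells and 739 and 599 in cells in neither set. Against G2M cells, 36 of the same 41 genes were at least 1.5-fold lower in S phase cells of both libraries and none higher, with median log2 ratios of -1.70 and -1.75. A further 10 reached the minimum only through the G2M cells and are left out of this count. Hist1h1b (ENSMUSG00000058773, chromosome 13, 21779883 to 21780625, minus strand, GRCm38), a linker histone gene, stood at 239 and 212 CPM in S phase cells, 957 and 1019 in S and G2M cells, 549 and 586 in G2M cells and 32.9 and 32.6 in cells in neither set. Hist1h1a (chromosome 13, 23763666 to 23764406, plus strand) stood at 43.2 and 38.9 CPM in S phase cells, 104 and 132 in S and G2M cells and 48.4 and 43.2 in G2M cells. The histone genes were therefore highest where both shares were high, and S phase cells had less of them than G2M cells did. Against cells in neither set the S phase class was high in cyclin E transcripts. Licensing and helicase genes had median log2 ratios of 1.73 and 1.85 there, and checkpoint and repair genes 1.68 and 2.06. Hist1h1b was also among the 10 highest genes named above for that comparison. The classes with more histone transcripts lay outside the S phase class. Slbp, the protein that binds the stem loop at the end of histone transcripts, stood at 222 and 207 CPM in S phase cells and 251 and 257 in S and G2M cells. Poly(A) capture reads these transcripts poorly, and near-identical histone copies can share reads, so values of single copies are uncertain.

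Depth differed between the classes, so shares of cells with a UMI were also counted after each cell was thinned to 3000 UMIs, which left out 36 and 9 S phase cells and 353 and 286 cells in neither set. A UMI of Pcna was then found in 35.2% (32.5 to 37.9) and 30.7% (27.4 to 34.2) of S phase cells, against 12.9% and 11.3% of cells in neither set. Without thinning these shares were 76.5% and 77.2%, against 26.4% and 25.9%. Rrm2 was found in 30.5% and 26.7% of thinned S phase cells, against 4.16% and 3.74%. Hist1h2ap was found in 19.7% and 12.5% of thinned S phase cells, 71.2% and 62.8% of S and G2M cells, 60.6% and 48.7% of G2M cells and 4.63% and 3.44% of cells in neither set. The order of the classes in Hist1h2ap at equal depth was thus that of Hist1h1b and of the summed histone genes above. The histone genes named above as lower in S phase cells than in cells in neither set do not share it. The sort gave 1 population, so the part of free RNA in these shares could not be read from a cell type that lacks the gene.

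Cells outside the top 20% by M share were next ordered by S share in 5 steps, from no UMI of the 8 S rule genes (step 1) to S phase cells (step 5). Of all kept cells, 28.8% in the oil-labelled library and 36.7% in the tamoxifen-labelled library had no UMI of these genes. Pcna was higher at each step in the oil-labelled library, at 34.6, 43.9, 57.6, 94.5 and 153 CPM. Kit was 401 CPM in step 1 and 95.7 in step 5 in that library, and 473 and 112 in the tamoxifen-labelled library. Ccnb1 did not follow this order and stood at 11.5, 23.9, 45.3, 55.9 and 43.7 CPM in the oil-labelled library and at 9.49, 22.4, 38.3, 45.4 and 32.2 in the tamoxifen-labelled library, so that step 4 was the highest in both. Median depth was 4840, 7672, 6965, 10064 and 12622 UMIs over the steps in the oil-labelled library, higher in step 5 than in step 1, and its part in these levels was not tested.

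**Figure D4:**
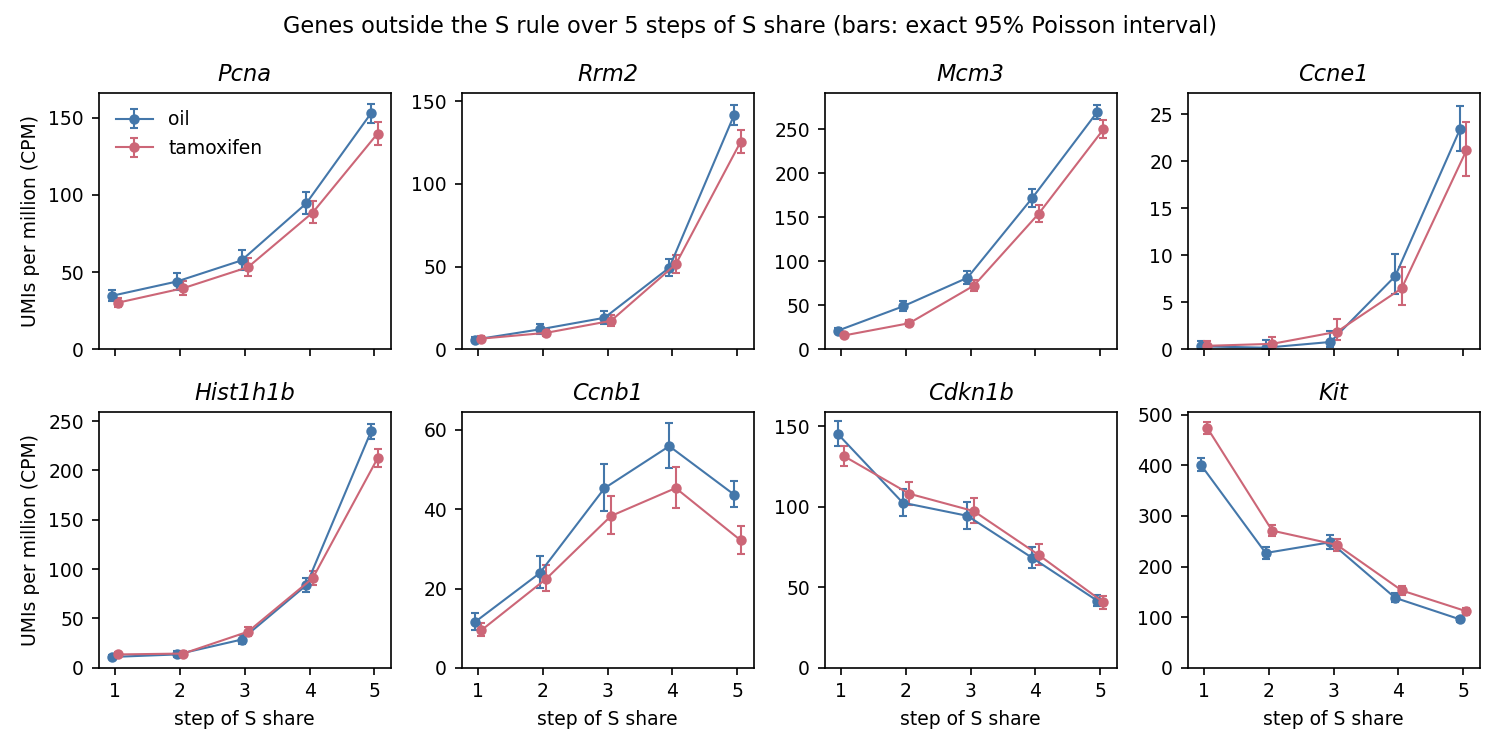
Level in CPM (y axis from 0, a scale of its own for each gene) of 8 genes over 5 steps of S share (x axis, step 1 without a UMI of the rule genes, step 5 the S phase cells), for both libraries, with exact 95% intervals that cover counting error only. Pcna is higher at every step in the oil-labelled library (34.6 to 153 CPM), while Kit is lower in step 5 than in step 1 in both libraries.

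Among themselves, S phase cells differed in histone and mitotic transcripts when ordered by M share. They were divided at their median M share, 4.92 per 10000 UMIs, into 610 lower and 662 higher cells in the oil-labelled library and 395 and 343 in the tamoxifen-labelled library. This division uses values of the rule and is a description. Hist1h1b stood at 65.8 CPM in the lower and 378 in the higher cells of the oil-labelled library, and at 44.4 and 382 in the tamoxifen-labelled library. Hist1h2ap stood at 37.4 and 193 CPM, and at 18.8 and 133. The histone list was higher in the higher cells by a median log2 ratio of 1.35 and 1.61, with 28 and 29 of 30 measured genes above 0, against 4220 and 4550 of all 8835 genes. Replication genes were above 0 in 109 and 105 of 117, at smaller medians of 0.22 and 0.23, and the median S share was also higher in these cells, at 11.5 against 10.5 per 10000 UMIs and at 10.9 against 9.67. The mitotic motor gene Kif11 had log2 ratios of 2.14 and 2.47. Lower in these cells were Cma1, with log2 ratios of -1.52 and -0.89, Serpinb1a, an inhibitor of neutrophil proteases, with -0.84 and -0.61, and Sgk1, with -0.81 and -0.93. Cells with more M share were also deeper, at medians of 13549 against 11763 UMIs and 14413 against 12929.

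The study asked what loss of Usp18 does to the leukemia cells, and S phase cells of the tamoxifen-labelled library were therefore compared with those of the oil-labelled library. Over 8851 genes, 79 (0.893%) were at least 1.5-fold higher in the tamoxifen-labelled library and 105 (1.19%) at least 1.5-fold lower. With TMM scaling these counts were 98 and 81, with median-ratio scaling 101 and 79, and with totals that leave out mitochondrial and ribosomal protein genes 108 and 75. The median gene stood at -0.07. None of the 117 replication genes differed by 1.5-fold. Their log2 ratios ran from -0.35 to 0.42 with a median of -0.09, against -0.21 in cells in neither set. A count of 0 in 117 is near the 0.893% and 1.19% of all genes and says nothing particular about the list. Of the 8 S rule genes, whose values chose the cells, 7 were below 0, with a median log2 ratio of -0.08, and Hells, a chromatin remodeller, was above it at 0.27. Myc was 65.8 and 80.2 CPM, a log2 ratio of 0.28 (0.15 to 0.42), against -0.12 in cells in neither set. With a stricter cell filter (1000 or more genes, no more than 5% mitochondrial UMIs), which left 185 S phase cells, the Myc ratio turned to -0.11.

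Interferon-stimulated genes were higher in S phase cells of the tamoxifen-labelled library in 25 of 29 measured, against 2995 of all 8851 genes. Of the 29, 10 were higher by 1.5-fold or more and none lower by that fold. The median log2 ratio was 0.39, against 0.53 in cells in neither set. Usp18 stood at 3.97 CPM (3.05 to 5.08) in the oil-labelled library and 11.9 (9.89 to 14.3) in the tamoxifen-labelled library, a log2 ratio of 1.59 (1.13 to 2.05), against 1.46 in cells in neither set. Isg15, the ubiquitin-like protein that Usp18 removes, stood at 36.6 and 71.6 CPM, a log2 ratio of 0.97 (0.81 to 1.13). In cells in neither set its log2 ratio was 1.16, and the difference of the ratios was -0.20 (-0.37 to -0.02). Rtp4, an interferon-induced chaperone of receptors, had 60 UMIs against 149, a log2 ratio of 1.97 (1.53 to 2.43), and Oasl2, an antiviral OAS-like protein, 39 and 90 UMIs, a log2 ratio of 1.86 (1.31 to 2.44). Irf7, a factor that amplifies interferon production, had a log2 ratio of 0.94 (0.53 to 1.35) in S phase cells and 1.47 in cells in neither set, with a difference of -0.53 (-0.96 to -0.10). Ifit1, an RNA-binding antiviral protein, had 3 UMIs in S phase cells of the oil-labelled library and 59 in those of the tamoxifen-labelled library, for a log2 ratio of 4.95 (3.34 to 7.27). Summed over the list, interferon-stimulated genes stood at 634 and 785 CPM in S phase cells and at 871 and 1240 CPM in cells in neither set. The list median was 0.18 under the stricter cell filter and 0.16 over genes with at least 500 UMIs.

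Immediate early genes, which respond within minutes to growth factors and to stress of handling, were lower in S phase cells of the tamoxifen-labelled library in 10 of 10 measured, 9 of them by 1.5-fold or more. The median log2 ratio was -1.22, against -0.87 in cells in neither set. Fos had 742 UMIs (46.8 CPM) in the oil-labelled library and 106 UMIs (10.5 CPM) in the tamoxifen-labelled library, a log2 ratio of -2.15 (-2.46 to -1.86). In cells in neither set it was -1.19, and the difference of the ratios was -0.96 (-1.27 to -0.65). Fosb stood at 76.1 and 15.9 CPM, a log2 ratio of -2.26 (-2.51 to -2.02), and Jun at 327 and 130 CPM, a log2 ratio of -1.33 (-1.42 to -1.25). The partners of the AP-1 factor, FOS and JUN family members, were thus low together in the tamoxifen-labelled library. Under the stricter cell filter the log2 ratio of Fos was -1.12. Time and handling of the sort belong to each library, and their part in these levels cannot be told apart from the injection.

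**Figure D5:**
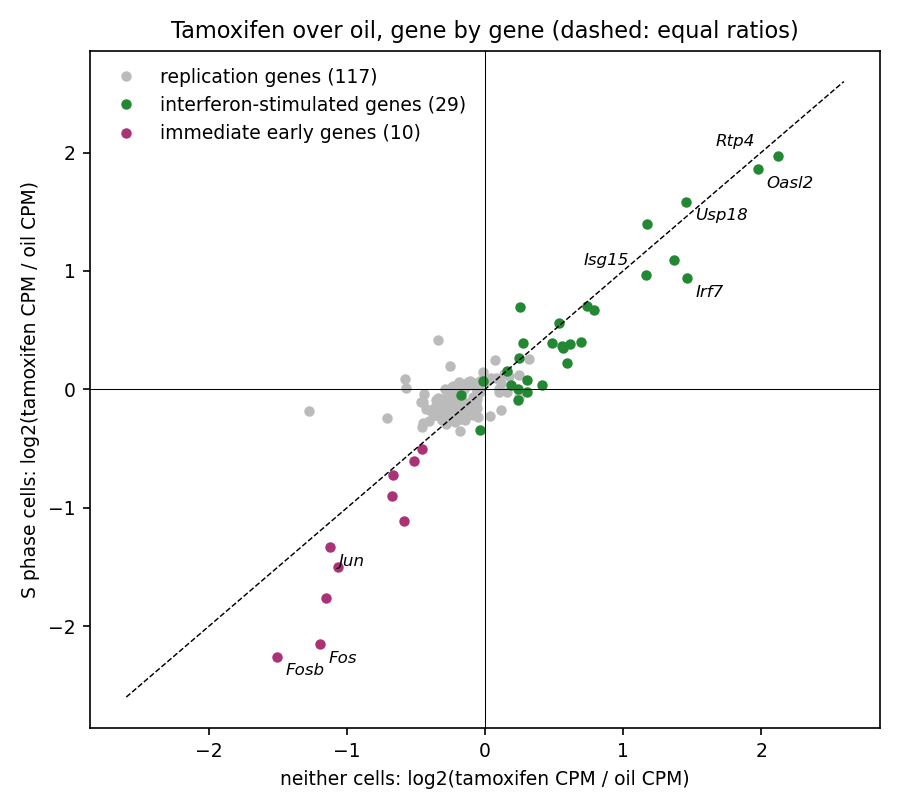
Log2 ratio of CPM in the tamoxifen-labelled library over the oil-labelled library, in cells in neither set (x axis) and in S phase cells (y axis), with a point per gene of 3 lists and a dashed line where both ratios are equal. Interferon-stimulated genes such as Rtp4 (1.97) and Usp18 (1.59) lie above 0 in S phase cells, Fos (-2.15) and Fosb (-2.26) lie below 0 and below the dashed line, and replication genes lie between -0.35 and 0.42 in S phase cells.

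Other genes with large ratios were of several kinds. Rhag, a membrane glycoprotein of red cells, had a log2 ratio of 0.94 (0.74 to 1.14). The short transcripts Rpl41, Rps28, Rps27rt, Smim27, Usmg5 and mt-Nd3 had log2 ratios between 0.72 and 0.77. The median share of ribosomal protein UMIs was 24.2% and 27.1% in S phase cells of the oil- and tamoxifen-labelled libraries. This share was also higher in the tamoxifen-labelled library in cells in neither set (21.0% and 26.0%) and in G2M cells (22.5% and 25.3%). Rps27rt is nearly identical to Rps27 and uncertain. On the low side, Mcpt1, a mast cell protease with close paralogs, stood at 57.1 and 19.0 CPM, a log2 ratio of -1.59 (-1.82 to -1.36), and Anxa2, a membrane-binding annexin, had a log2 ratio of -1.30. Gm20186 stood at 31.2 and 15.7 CPM, a log2 ratio of -0.99 (-1.26 to -0.73), against -0.12 in cells in neither set. The CDK inhibitor Cdkn1a was higher in S phase cells of the tamoxifen-labelled library, by a log2 ratio of 0.48 (0.35 to 0.62), near the 0.41 of cells in neither set.

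Markers of granulocytes, lymphocytes and macrophages, which the sort could hold, were scarce in S phase cells. The granulocyte list had 10 and 6 UMIs in all, with Elane, Mpo and S100a8 at 0. The lymphocyte list had 7 and 0 UMIs and the macrophage and monocyte list 69 and 55, with Adgre1 and Ly6c2 at 0. The mast cell and erythroid lists had UMIs in S phase cells of both libraries, although Tpsb2 and Prss34 of the mast cell list were at 0 in the tamoxifen-labelled library. The summed mast cell list stood at 1753 and 1563 CPM in S phase cells and at 5642 and 4382 in cells in neither set, and the summed erythroid list, which is mostly globin, at 7028 and 7369 CPM against 10282 and 10988. The stem and progenitor list stood at 946 and 902 CPM in S phase cells against 1266 and 1145 in cells in neither set. Most of it in S phase cells was Runx1, at 683 and 669 CPM. Only 5 of its 10 genes were measured against cells in neither set. Of these, 2 (Spi1 and Gfi1) were at least 1.5-fold lower in S phase cells of both libraries and none higher. Lmo2 stood at 129 and 117 CPM, Spi1 at 72.9 and 62.6 and Gfi1b at 60.2 and 51.6, while Hoxa9 and Mecom were at 0 in S phase cells of both libraries.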

How the data were processed

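Single-cell RNA-seq libraries were made by the study with the Chromium 3′ V3 kit from 1 pool of cells per group, and the authors mapped reads to mm10 with Cell Ranger 3.0.2. The deposited matrices hold raw UMI counts for 31053 genes per barcode, without normalization. Seurat, which the study named for its analysis of cells, was not used. No file held a column of an unknown sample (0 such columns).

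Members and gene lists were chosen with earlier results of these data known. Counts of all cells in a class were added up within each library and divided by the class total to give CPM with exact Poisson intervals. Ratios have exact conditional binomial intervals, and shares of cells Clopper-Pearson intervals, all at 95%. With 1 library per group no test was run, and intervals cover counting error only. Genes entered a comparison with at least 100 UMIs over the classes compared. A fold of 1.5 was a rule of size. No doublet caller was run. Instead, the 5% of cells with most UMIs were dropped in 1 alternative.

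Genes were named by rule: the 10 highest and 10 lowest between S phase cells and cells in neither set by the smaller ratio of both libraries, the 10 highest and 10 lowest between libraries, each with at least 20 CPM, the top 3 and bottom 3 per list, the 16 rule genes and a few genes fixed by name. Genes named outside this rule (Mcm4, Tyms, Chek1, Msh6, Hist1h2ap and Kif11 among them) were chosen as known members of their lists after values were seen. Some genes that the rule selects are not reported here. Positions come from GENCODE M21 (GRCm38), which held 30934 of the gene identifiers. Ratio and interval steps were tested on simulated data. Alternatives were other cell filters, S share limits and rule genes, thinning to 3000 UMIs, TMM (edgeR 4.0.16) and median-ratio (DESeq2 1.42.0) scaling, equal weight for every cell and other count minimums. Scripts ran on R 4.3.3 and Python 3.11.15 with scipy 1.17.1, numpy 2.4.6, matplotlib 3.10.9 and pandas 2.3.3.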

Additional observations from a re-analysis of the deposited data

Results flagged for a closer look

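The S phase class was defined on kept cells, and barcodes outside the cell filter entered no comparison. Among them, 69 of 936 (7.37%, 5.78 to 9.24) in the library labelled oil and 41 of 839 (4.89%, 3.53 to 6.57) in the library labelled tamoxifen lay past the S share limit and within the M share limit. They were singled out as signal in barcodes that the report does not use. Most barcodes left out had over 10% of UMIs from mitochondrial genes (845 and 807).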

How the results depend on the processing

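No paired analysis was possible because only 1 library was made per group. The main values were 1044 genes higher and 1861 lower in S phase cells, 79 higher and 105 lower with tamoxifen, median log2 ratios of replication genes of 1.43 (oil) and 1.55 (tamoxifen), and a difference in the share of S phase cells, tamoxifen minus oil, of -7.20 percentage points. Against all other kept cells, G2M cells included, 334 genes were higher and 1173 lower, the replication medians were 0.69 and 0.95, and the histone medians turned to -0.85 and -0.54. The replication medians were 1.17 and 1.37 with the top 10% by S share, 1.23 and 1.31 after thinning to 3000 UMIs, and 1.62 and 1.70 with equal weight for every cell, with 1.27 (oil) for an S share from 4 genes and 1.69 (tamoxifen) with median-ratio scaling. The share difference was -9.58 without exclusion by M share and -5.01 with the top 10%. With tamoxifen, 242 genes were higher and 321 lower at a minimum of 20 UMIs, and 33 and 32 at a minimum of 500. The stricter cell filter of 1000 or more genes and no more than 5% mitochondrial UMIs kept 1444 of 13310 cells. Under it 63 genes were lower with tamoxifen and Myc turned to -0.11. TMM scaling moved the median gene between S phase cells and cells in neither set by 0.16 and 0.11 on the log2 scale. Of the values recomputed for single genes and lists, leaving out the rule genes in turn included, 167 stayed within their counting interval, 49 moved beyond it with the same direction and 3 turned. The alternative without barcodes found in both libraries was chosen after seeing the data. Causes of these moves were not tested beyond the construction of each alternative. Low counts limit single genes, as with the 3 UMIs of Ifit1.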
